A study of Mus musculus with 6 samples.

Results

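The 3 arrays of the nontargeting siRNA group, of 6 arrays in the whole series, give the baseline transcriptome of G1E-ER-GATA-1 cells in which GATA-1 had been switched on. They were chosen by their siRNA label alone, and the other 3 arrays enter no value given here. G1E-ER-GATA-1 is a mouse erythroid precursor line derived from embryonic stem cells that lack their own Gata1 gene, and it carries a GATA-1 protein joined to an estrogen receptor domain, which becomes active when estradiol is added. The cells grew with 2 U/mL erythropoietin, Kit ligand in conditioned medium and puromycin. The cells received nontargeting siRNA, a control with no intended target gene, by electroporation at 0 h and at 24 h, β-estradiol was added at 24 h, and RNA was taken at 48 h, after 24 h of hormone. All 3 samples share the missing Gata1 gene, the fusion protein, the hormone and both electroporations, and no array of cells without hormone was used. Cy3-labelled cRNA from 0.1 µg of RNA was hybridised to 1-colour Agilent mouse arrays, all 3 on 1 slide and in 1 scan. Whether each replicate was its own culture is not given in the labels, and the spread over arrays may be technical. This is 1 cell line, so values say nothing about spread between lines or animals.

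As background, GATA-1 is a zinc finger transcription factor that binds GATA letters in DNA and turns on the globin, heme and red cell membrane genes while early progenitor genes such as Gata2 and Kit are turned down. Erythroid precursors that mature under erythropoietin take up iron through the transferrin receptor, build heme in the mitochondrion and cytosol, pack hemoglobin, assemble a spectrin skeleton under the membrane and leave the cell cycle. Restoring GATA-1 activity in G1E cells is a standard way to start that program in culture.

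A level is the log2 signal of a probe minus the 75th percentile of its array, so 0 is the signal at that percentile. Values with ± are mean ± SD over n = 3 arrays. A gene is read through its brightest probe, and is called on when that probe was well above background on all 3 arrays, off when none of its probes was so on any array, and mixed otherwise. Off means only that no probe stood well above background. A probe whose spots on an array were all removed as outliers counted as not well above background there. A gene can thus be mixed at a bright level. Probes differ in how strongly they bind, so levels rank probes and give no ratio between genes.

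Some of the brightest probes carry runs of letters that recur in many places, and these runs are shown first because they decide how the list of brightest genes reads. A probe is called widely shared here when a run of 18 of its 60 bases also lies, on either strand, in RefSeq promoters (build GRCm38.p6, 250 bases before to 50 after the start) of 5 or more other genes. That definition was chosen after the values were seen. Capitals mark the letters that the runs in a group have in common, and the Gata5 run is turned to the strand of the others.

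Glrx2: gAGTTCCAGGACAGCCAG
Elk1: AGTTCCAGGACAGCCAGg
Med16: AGTTCCAGGACAGCCAGg
Gata5: gAGTTCCAGGACAGCCAG
Exosc2 and Milr1: TCCCAGCAACCACATGGT
Kctd14: aggccagcctGGTCTACA
Ttc38: GGTCTACAaagtgagttc
Itgam and Snap25: ACACACACACACACACAC

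The run of the Exosc2 and Milr1 probes lay in promoters of 60 genes, those of Glrx2, Elk1 and Med16 in 28 each, and the alternating run of Itgam and Snap25 in 103. As background, letters like the first groups occur in the B1 and B2 short interspersed repeats of the mouse genome, and the last is a simple repeat; no repeat annotation was used. Of 55681 probes, 661 (1.19%) were widely shared. Their share was 0.265% among probes with levels from −9 to −6, 1.87% from 0 to 3, 6.31% from 6 to 9 and 32.8% (19 of 58) from 10 to 12. Widely shared probes thus made up a larger part of each brighter class, and their part in any 1 gene's level was not tested.

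Of the 55681 probes, 26837 (48.2%) were well above background on all 3 arrays, 2912 on 2 arrays, 4290 on 1 and 21642 on none. Of 22328 genes with a RefSeq symbol, 12620 (56.5%) were on, 7144 (32%) were off and 2564 were mixed. Protein-coding genes were on in 58.5% of 20139 cases and long noncoding RNA genes in 33.1% of 1645. The median level was 1.12 over genes on and −2.38 over all genes. The middle 80% of genes on lay between −2.54 and 5.33, and the brightest gene reached 11.26. The lowest level that counted as well above background was −4.11, −4.03 and −4.11 on replicates 1 to 3.

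**Figure D1:**
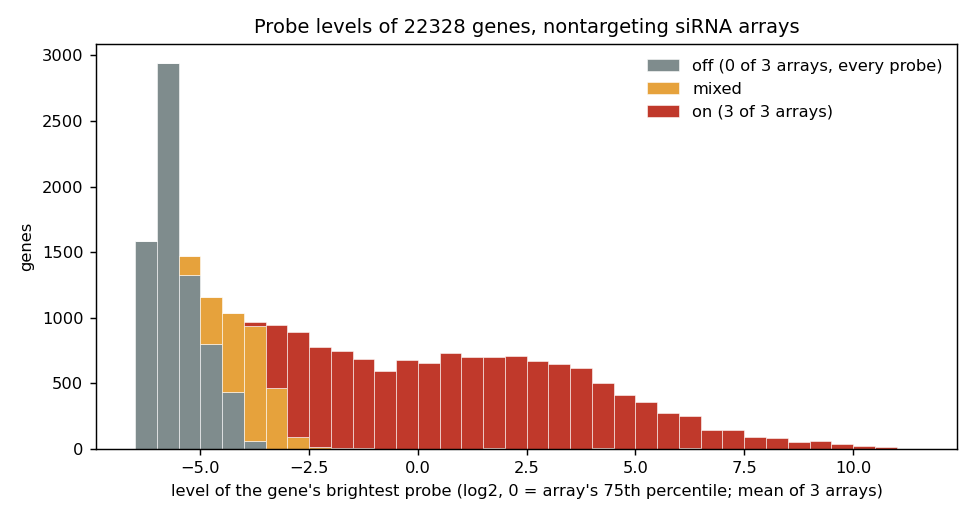
Histogram of the level (log2, 0 is the 75th percentile of the array, mean of 3 arrays) of each gene's brightest probe, in steps of 0.5, for 22328 genes coloured by call. The 7144 off genes form the peak at the left, most of the 2564 mixed genes sit between, and the 12620 genes on run out to 11.26.

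How often a gene of a class that these cells should lack is called on gives a floor for reading the counts that follow. Of 1076 olfactory receptor genes, the odorant sensors of the nose, 172 (16%) were on and 676 (62.8%) were off. Vomeronasal receptor genes were on in 23 of 256 cases (8.98%) and beta-defensins in 8 of 42 (19.0%). At the other end stand the gene families of basic cell machinery. All 78 mitochondrial ribosomal protein genes, all 38 subunit genes of respiratory complex I and all 17 aminoacyl-tRNA synthetase genes matched by symbol were on. Cytosolic ribosomal protein genes were on in 78 of 82 cases, with a median level of 8.69, and proteasome subunit genes in 36 of 39, with a median of 4.40. Between these ends lay Hox genes with 13 of 39 on, keratins with 18 of 49, collagens with 16 of 44 and potassium channel genes with 32 of 92. The brightest Hox gene was Hoxb13 at 4.48 ± 0.04, followed by Hoxc6 at 1.83 ± 0.32.

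The 15 housekeeping genes were all on, with Rplp0 (large ribosomal subunit) at 10.32 ± 0.14, Gapdh (glycolysis) at 10.14 ± 0.12, Actb (actin) at 9.92 ± 0.11 and Eef1a1 (translation elongation) at 9.11 ± 0.02. Their brightest probes nonetheless ran down to 1.30 for Tbp, the TATA-binding protein, whose other probe gave −1.63. A middling or low level is thus compatible with a gene that every cell uses. Xist, the RNA of the inactive X chromosome, was off with both of its probes, and Ddx3y, Eif2s3y, Kdm5d and Uty of the Y chromosome were off too.

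Globin probes held the top of the ranking. Hba-a1, adult alpha globin (probe at mm9 chromosome 11, 32183955 to 32184014), gave 11.36, 11.16 and 11.27 on replicates 1 to 3, and Hba-a2, its near-identical copy, gave 11.14, 10.97 and 11.08. The array design names each as a further match of the other's probe, so their order is uncertain. Hbb-b2, an adult beta globin, gave 10.87, 10.59 and 10.71, and Hbb-bt, the adult t chain of beta globin, gave 10.46, 10.26 and 10.41. These 4 were the only globins among the 20 brightest named genes. Replicate 1 was the highest and replicate 2 the lowest in each of the 4.

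The other 16 places went to a pair of unlike sets of probes. Of the 20, 10 were read through a widely shared probe: Kctd14, Slc10a1, Glrx2, Exosc2, Elk1, Milr1, Rn4.5s, Ttc38, Med16 and Pirb, with levels from 10.44 (Pirb) to 10.87 (Kctd14). Other probes of the same genes told another story where they existed. Slc10a1, a bile acid carrier of hepatocytes, was 10.86 ± 0.10 on its shared probe, which the design also assigns to Med16 and other genes, and −4.21, not well above background, on its remaining probe. Kctd14 was 10.87 ± 0.11 against −2.04 on the brightest remaining probe, Elk1 (an ETS factor) 10.62 ± 0.14 against −3.38, and Pirb (an inhibitory leukocyte receptor) 10.44 ± 0.13 against −2.84. Glrx2, a mitochondrial glutaredoxin, fell less far, from 10.80 ± 0.11 to 3.87, and Med16, a Mediator subunit, from 10.50 ± 0.14 to 2.44. Exosc2, of the RNA exosome, and Rn4.5s, a small noncoding RNA, had no other probe. Zfp628 (10.53 ± 0.34) sits just under the definition: its probe shares runs with 4 promoters, is 86.7% G and C, and the gene's other probe gave 2.31.

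The remaining 5 genes had no such run. Ftl1, ferritin light chain, stood at 10.57 ± 0.23, Aldoa, a glycolytic aldolase, at 10.55 ± 0.15, and the mitochondrial COX1 transcript at 10.52 ± 0.10. Rpl37a was 10.33 ± 0.08 and Rplp0 10.32 ± 0.14. With widely shared probes left out, 10 of the 20 genes kept their place, and those that came in included Rps20, Fau, Tpt1, Rpl41, Rpl37, Gapdh, Rn28s1, Rps14 and Rpsa. In that ranking the top read Hba-a1, Hba-a2, Hbb-b2, Ftl1 and Aldoa. Globin, iron storage, glycolysis and ribosome genes then filled the list apart from Zfp628, COX1, the growth-linked Tpt1 and the ribosomal RNA probe Rn28s1.

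**Figure D2:**
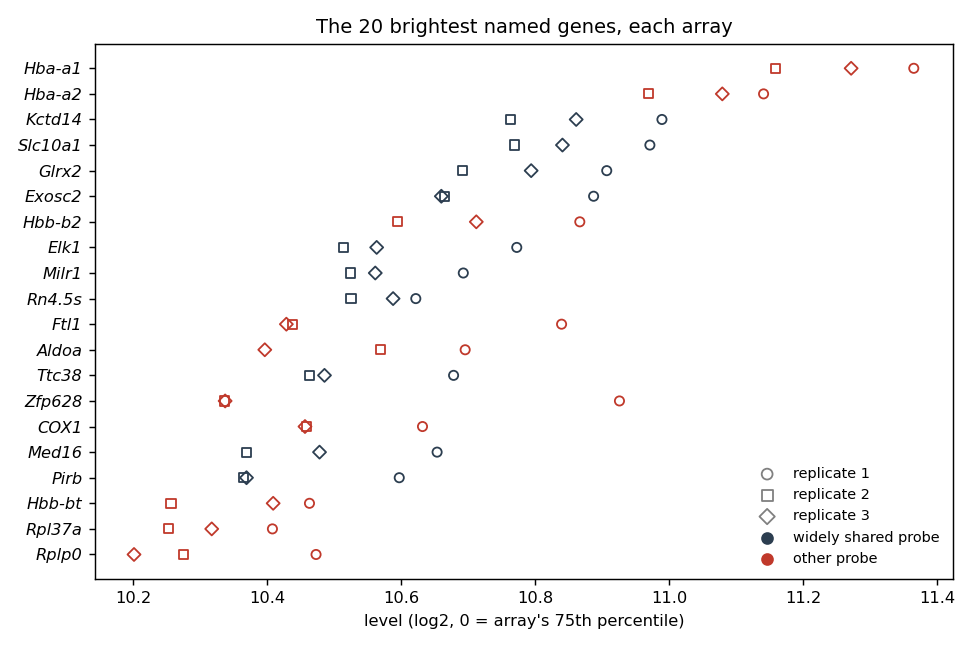
Level (log2, 0 is the 75th percentile of the array) of the 20 brightest named genes on each of the 3 arrays, with symbols for arrays and colours for widely shared and other probes. Alpha globins lead at 11.26 and 11.06, and 10 of the 20 genes are read through widely shared probes.

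Most members of the erythroid lists were on. Over 7 lists, 118 of 123 genes with a probe (95.9%) were on, beside 56.5% of all genes, and 55 of them lay above the 90th percentile of brightness among genes on. Their median level was 4.53, against −2.38 over all genes. Leaving out widely shared probes left the 118 as they were. Asking every probe of a gene to be on left 115. List members were chosen with earlier results of these data known, and some, such as the ubiquitous Alas1, are not confined to erythroid cells. Housekeeping genes were on in all 15 cases, so a high share alone does not mark an erythroid trait.

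All 10 globin genes with a matched probe were on. Hbb-bs, the adult s chain of beta globin, was 9.89 ± 0.10. The embryonic globins varied more between arrays. Hbb-y, embryonic beta, gave 6.53, 5.68 and 6.49, Hbb-bh1, a further embryonic beta, gave 5.0, 3.95 and 4.64, and Hba-x, embryonic alpha (zeta), gave 0.47, −0.15 and 0.20. Replicate 2 was the lowest of the 3 in each of these, with SDs of 0.48, 0.54 and 0.31 beside 0.09 to 0.14 for the 5 adult alpha and beta genes. The theta-like genes Hbq1b and Hbq1a stood at 3.06 ± 0.10 and 1.23 ± 0.13. Probes of this family can bind each other's transcripts, so the split among copies is uncertain. Hbb-b1 and Ahsp are list members without a matched probe.

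All 17 genes of heme synthesis and transport were on, 9 of them above the 90th percentile. Their order below follows the pathway, so members outside the rule for named genes are included. Alas2, the erythroid enzyme of the first and rate-limiting step, gave 9.97, 9.89 and 9.86 (probe at mm9 chromosome X, 147004993 to 147005052). Its ubiquitous counterpart Alas1 was 1.37 ± 0.06. Glrx5, needed for iron-sulfur clusters, was 9.21 ± 0.07. Further along the pathway stood Alad at 7.08 ± 0.21, Uros at 3.71 ± 0.11, Urod at 8.47 ± 0.07, Cpox at 7.03 ± 0.02, Ppox at 3.64 ± 0.16 and Fech, which inserts the iron, at 8.12 ± 0.10. The first and the last enzyme thus both had a probe well above background on all arrays. The transporter Abcb10 was 7.23 ± 0.07. A dimmer probe of Uros gave −1.78.

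All 16 iron genes were on. Storage stood highest, with Ftl1 at 10.57 ± 0.23 and Fth1, ferritin heavy chain, at 9.58 ± 0.08. Pcbp1, an iron chaperone, was 7.32 ± 0.08, and Ncoa4, the receptor that sends ferritin to lysosomes, was 7.04 ± 0.09. For uptake, Tfrc, the transferrin receptor, was 5.23 ± 0.12 and Slc25a37 (mitoferrin) 5.33 ± 0.07. Their dimmer probes gave 3.62 and 0.43 for Tfrc and 1.28 for Slc25a37. The regulators Ireb2 and Aco1 were the dimmest, at −1.11 ± 0.23 and −0.50 ± 0.20.

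Of 25 red cell membrane genes, 24 were on and 11 lay above the 90th percentile. Epb41 (protein 4.1), which ties spectrin to actin, was 8.53 ± 0.06, Add1 (adducin) 7.73 ± 0.03, Slc4a1 (band 3, the anion exchanger) 7.63 ± 0.06 and Cd47 7.55 ± 0.10. Further probes were dimmer, at 1.78 and 1.77 for Epb41, 3.21 for Add1, and 7.39 and −1.06 for Cd47. Dimmer members of the same list were Rhag at 0.23 ± 0.39, Sptb (beta spectrin) at −2.21 ± 0.38 and Epb42 at −2.40 ± 0.31. The exception was Aqp1, the water channel of mature red cells, which gave −5.97, −6.18 and −6.02, near the lowest level of each array, on its 1 probe (mm9 chromosome 6, 55298480 to 55298539).

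Maturation enzymes were on in 14 of 16 cases. Prdx2, a peroxidase abundant in red cells, was 9.59 ± 0.15, Gpx1 9.17 ± 0.06, Car2 (carbonic anhydrase) 8.83 ± 0.06 and Hk1 (hexokinase) 8.70 ± 0.05. Dimmer probes of Hk1 gave 7.77 and 4.55. Bnip3l, which marks mitochondria for removal, was 7.59 ± 0.02 with all 4 of its probes on. Car1, a carbonic anhydrase of later cells, was low at −1.94 ± 0.23. Trim58, a ubiquitin ligase of late erythroblasts, was well above background on replicate 1 only (−3.23, −4.66 and −5.95), and Alox15, the lipoxygenase of reticulocytes, was off at −5.08 ± 0.32. Catalase (Cat) was read through a widely shared probe at 3.74 ± 0.16 and by its other probe at 2.11.

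Erythroid transcription factors were on in 21 of 23 cases, 10 of them above the 90th percentile. The GATA-1 cofactor Zfpm1 (FOG-1) led at 8.61 ± 0.06, followed by Nfe2 at 7.63 ± 0.05, Lmo2 at 7.38 ± 0.04 and Gfi1b at 7.16 ± 0.09. Gata1 gave 6.32, 6.51 and 6.64, its probe lying at mm9 chromosome X, 7536392 to 7536451. In a line with a GATA-1 fusion gene this signal cannot be assigned to the fusion or to the altered locus. Tal1, a partner of GATA-1, was 6.37 ± 0.09 and Klf1, the factor of the adult beta globin gene, 5.78 ± 0.17. Bcl11a, a repressor of embryonic globin genes, was low at 0.68 ± 0.07. Sox6, named with Bcl11a in that role, was off at −5.94 ± 0.10, and so was Nfia at −5.87 ± 0.40 on its brighter probe.

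All 16 genes of erythropoietin signalling were on. Bcl2l1 (Bcl-xL), the survival gene downstream of the receptor, was 8.06 ± 0.10 on its brighter probe and 3.35 on the other. Epor, the receptor itself, was 6.49 ± 0.06, and its targets Pim1 and Cish were 6.38 ± 0.16 and 6.00 ± 0.08. Jak2, the receptor's kinase, was 4.28 ± 0.08, Stat5b 5.38 ± 0.04 and Stat5a 2.05 ± 0.07. The lowest member was Ptpn6, a phosphatase that damps the receptor, at −3.16 ± 0.22.

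**Figure D3:**
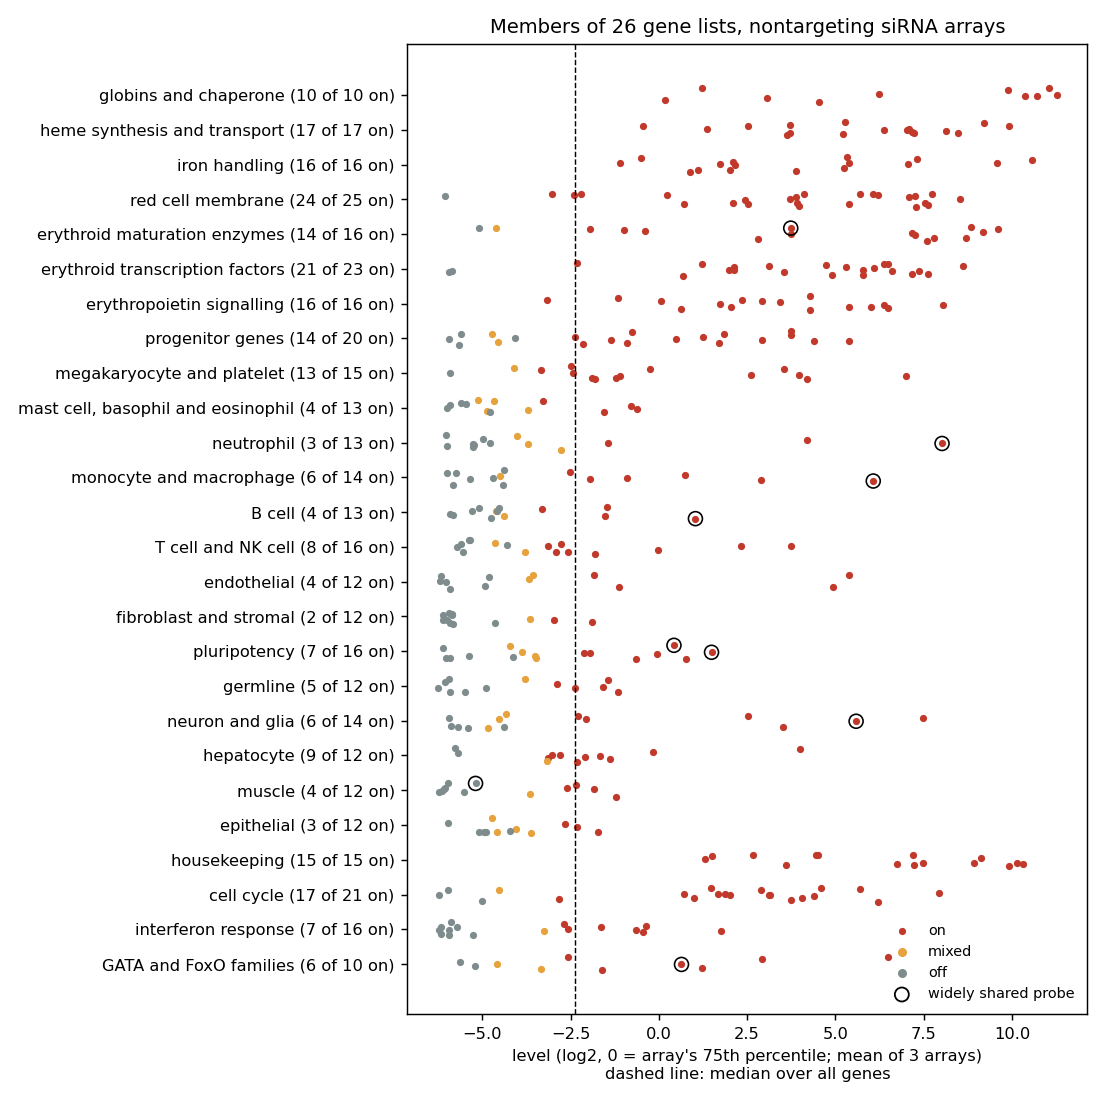
Level (log2, 0 is the 75th percentile of the array, mean of 3 arrays) of every member of 26 gene lists, coloured by call, with circles around genes read through a widely shared probe. Erythroid lists at the top lie mostly to the right of the dashed median over all genes, and lists of other lineages mostly to its left.

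Progenitor genes were on in 14 of 20 cases (70.0%), with a median level of −0.83, beside 56.5% and −2.38 over all genes. Hhex was the highest at 5.38 ± 0.09, then Ccnd2 (a D-type cyclin) at 4.41 ± 0.09 and the factors Fli1 at 3.74 ± 0.06 and Runx1 at 3.74 ± 0.07. Gata2 gave 2.69, 2.81 and 3.24 (probe at mm9 chromosome 6, 88156362 to 88156421). Kit, the stem cell factor receptor, gave 0.42, 0.29 and 0.76, so both genes that GATA-1 is known to turn down were still well above background 24 h after hormone. Replicate 3 was the highest for Gata2, Kit and Myc (1.14, 1.75 and 2.21). Spi1 (PU.1) was −1.36 ± 0.19 and Myb −2.15 ± 0.32, both on but dim. Slamf1 (−5.95 ± 0.10), Ly6a (Sca-1, −5.66 ± 0.37), Erg (−5.61 ± 1.02) and Hlf (−4.07 ± 0.22) were off. Cd34 and Mecom were well above background on replicate 3 only.

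Of 186 genes on 14 lists of other lineages, 78 (41.9%) were on, 78 were off and 30 were mixed, beside 56.5% on over all genes. Their median level was −4.04, and the median gene on stood at percentile 22.7 of brightness among genes on. Leaving out widely shared probes left 73 of 181 on, and asking every probe to be on left 60. With the looser call of positive and significant against background, 122 of 186 (65.6%) were on, beside 71.8% of all genes. The lists are described from the closest lineage outward, with members on and members off named for each.

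Megakaryocytes share a progenitor with red cells, and 13 of 15 genes of their list were on. Itgb3, the beta chain of the platelet fibrinogen receptor, was 7.01 ± 0.10 on its brighter probe and 0.47 on the other. Pf4 (platelet factor 4) gave 4.59, 4.16 and 3.86, Gp9 gave 4.39, 4.03 and 3.51, Gp1ba was 3.55 ± 0.09 and Tubb1 2.61 ± 0.21. Itga2b, the partner of Itgb3, was −0.26 ± 0.11. The other 7 members on were all below 0, down to −3.34 for Selp, Vwf was mixed and Ppbp was off. The list's median of −1.20 is therefore made of 5 brighter genes and a dim remainder.

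In the mast cell, basophil and eosinophil list 4 of 13 were on, all below 0: Hdc (histidine decarboxylase) at −0.63 ± 0.29, Tpsb2 at −0.79 ± 0.18, Prg2 at −1.56 ± 0.09 and Prss34 at −3.27 ± 0.57. Cpa3, Mcpt8, Tpsab1, Fcer1a and Ear2 were off. In the neutrophil list 3 of 13 were on. Csf3r (8.02 ± 0.15) was read through a widely shared probe alone, Elane (neutrophil elastase) gave 4.66, 4.11 and 3.83, and Camp was −1.43 ± 0.32. Mpo, Prtn3, Ltf, S100a8, S100a9, Ly6g and Cebpa were off. The granule genes Ngp (−3.05, −4.29 and −1.01) and Ctsg (−3.10, −3.99 and −4.03) were mixed, well above background on 2 arrays and on 1, and the factor Cebpe was mixed too.

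Monocyte and macrophage genes were on in 6 of 14 cases. Itgam (CD11b) was 6.07 ± 0.34 on the probe with the alternating repeat shown above and −1.92 and −2.12 on its other probes. Csf1r, the receptor of macrophage colony-stimulating factor, was 2.90 ± 0.57 on its brightest probe, with −0.25 and −2.51 on the others. Cd68 was 0.75 ± 0.10, C1qb −0.91 ± 0.24, Marco −1.95 ± 0.08 and Adgre1 (F4/80) −2.52 ± 0.21. Lyz2, Cd14, Mrc1, Ly86, Cx3cr1 and C1qa were off.

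B cell genes were on in 4 of 13 cases: Cd22 at 1.04 ± 0.11 through a widely shared probe alone, Vpreb1 at −1.48 ± 0.64, Cd79a at −1.52 ± 0.49 and Vpreb3 at −3.30 ± 0.23. The lineage factors Pax5 and Ebf1 were off, as were Cd79b, Ms4a1, Rag1 and Rag2. T cell and NK cell genes were on in 8 of 16. Cd4 was 3.76 ± 0.34 on its brighter probe and −3.19 on the other, Cd3e 2.32 ± 0.21, Prf1 (perforin) −0.02 ± 0.23, Cd8b1 −1.81 ± 0.46, Gata3 −2.58 ± 0.40 and Cd5 −2.77 ± 0.12. Cd3d, Cd8a, Cd2, Tcf7, Klrb1c and Gzmb were off.

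Endothelial genes were on in 4 of 12 cases. Egfl7 was 5.38 ± 0.25, Kdr (the VEGF receptor) 4.92 ± 0.23 on its brighter probe and −3.27 on the other, Pecam1 −1.13 ± 0.26 and Plvap −1.85 ± 0.33. Cdh5, the cadherin that defines this lineage, was off, with Tek, Tie1, Emcn, Cldn5 and Sox18. Of the fibroblast and stromal list, which had the lowest share of the 14, 2 of 12 were on: Col1a2 at −1.90 ± 0.30 and Acta2 at −2.97 ± 0.12. Col1a1, Dcn, Lum, Pdgfra, Pdgfrb, Thy1, Fn1, Postn and Twist1 were off.

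The line came from embryonic stem cells, and 7 of 16 pluripotency genes were on, none above Nanog. Nanog (1.49 ± 0.14) was read only through a widely shared probe, and Tdgf1 (0.43 ± 0.27) lost its call without such a probe, leaving −5.92. Lin28a was 0.77 ± 0.14, Utf1 −0.04 ± 0.19, Klf4 −0.66 ± 0.13 and Dppa4 −1.96 ± 0.13. Pou5f1 (Oct4) was mixed at −3.48 ± 0.08, and Sox2, Zfp42, Klf2, Prdm14 and Fgf4 were off. Germline genes were on in 5 of 12 cases, all below 0: Tnp1 at −1.15 ± 0.15, Prm1 at −1.45 ± 0.06, Prm2 at −1.57 ± 0.28, Tex101 at −2.38 ± 0.55 and Gdf9 at −2.90 ± 0.45. Ddx4, Dazl, Sycp1, Sycp3, Mael and Stra8 were off.

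Neuron and glia genes were on in 6 of 14 cases. Mbp, the gene of myelin basic protein, was 7.49 ± 0.13 on its brightest probe and 4.29 and −1.22 on the others. Snap25 (5.59 ± 0.25) was read only through a widely shared probe. Syp was 3.52 ± 0.24, Tubb3 2.52 ± 0.10, Mapt −2.05 ± 0.35 and Gfap −2.30 ± 0.45, while Syt1, Nefl, Neurod1, Slc17a7 and Gad1 were off. Of the hepatocyte list 9 of 12 were on, mostly dim. Apoa2 was 4.01 ± 0.29 on its brighter probe and −6.23, off, on the other, Afp −0.16 ± 0.23, Cyp2e1 −1.40 ± 0.30, Tat −1.65 ± 0.28, G6pc −2.08 ± 0.37 and Serpina1a −2.33 ± 0.56. Alb and Apoa1 were off. Asking every probe to be on left 5 of the 9.

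Muscle genes were on in 4 of 12 cases, Myh7 at −1.22 ± 0.18, Acta1 at −1.85 ± 0.98, Myh6 at −2.36 ± 0.19 and Tnnt3 at −2.61 ± 0.51. Actc1, Myh1, Ckm, Tnnt2, Mb, Myod1 and Ryr1 were off. Epithelial genes were on in 3 of 12, Krt14 at −1.74 ± 0.28, Cldn4 at −2.31 ± 0.28 and Krt5 at −2.66 ± 0.24. Krt8, Krt19, Elf3, Sftpc and Vil1 were off. In these last lists no gene reached the median level of genes on. Over the 14 lists, 5 genes on (Csf3r, Cd22, Nanog, Snap25 and Tdgf1) owed the call to widely shared probes alone, and Myod1, off, had no other kind of probe.

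Cell cycle genes showed inhibitors beside replication genes. Of 21, 17 were on (81.0%), beside 56.5% of all genes. Ccnd3, the D-type cyclin of erythroid cells, was 7.92 ± 0.16, and the inhibitors Cdkn1a (p21), Cdkn1b (p27) and Cdkn2d (p19) were 6.21 ± 0.03, 5.71 ± 0.19 and 4.60 ± 0.03. Replication genes such as Mcm7 (4.05 ± 0.13) and Pcna (3.75 ± 0.14) and the proliferation marker Mki67 (3.11 ± 0.18) were on too. Ccnd1 (−6.23 ± 0.12), Aurkb (−5.96 ± 0.11) and the inhibitor Cdkn1c (−5.00 ± 0.76) were off, and Cdkn2a was mixed. Aurkb has 1 probe here. Other mitotic genes differed in level. Plk1 (0.98 ± 0.10) and Ccnb1 (3.14 ± 0.07) were on, with dimmer probes of Ccnb1 at 0.63 and 0.20. Cdk1 was on but dim, at −2.84 ± 0.21 on its brightest probe. Neither of its other probes was well above background on all 3 arrays.

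Double-stranded RNA delivered into cells can raise interferon genes, and this list was read for that reason. Of 16, 7 were on (43.8%) and 8 were off (50%), beside 56.5% on and 32.0% off over all genes. None reached 2 on this scale. Stat2 was the highest at 1.76 ± 0.19, then Ddx58 (RIG-I) at −0.36 ± 0.12, Mx2 at −0.44 ± 0.28 and Isg15 at −0.64 ± 0.16. Ifit1, Ifit2, Ifit3, Mx1, Oasl2, Rsad2, Cxcl10 and Ifnb1 were off, and Oas1a was mixed with 2 of 3 arrays. No array of cells without siRNA was used, so no change can be read from these levels.

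In the GATA family Gata1 (6.49 ± 0.16) and Gata2 (2.91 ± 0.29) were well separated from the rest. Gata5 (0.64 ± 0.06) had only the widely shared probe shown above, Gata3 was −2.58 ± 0.40, Gata4 mixed at −3.34 ± 0.53 and Gata6 off at −5.22 ± 0.86. In the FoxO family Foxo3, a forkhead factor of erythroid maturation, gave 1.23, 1.28 and 1.12 on the probe of its RefSeq transcript (mm9 chromosome 10, 41905610 to 41905669) and 0.67, 0.64 and 0.70 on a probe of a cDNA clone. That put it at percentile 50.9 of brightness among genes on. Foxo4 was −1.61 ± 0.62, Foxo6 mixed at −4.58 ± 0.82 and Foxo1 off at −5.63 ± 0.48. Foxo3 was thus the FoxO gene with the brightest probe, and its 3 values spanned less than those of Foxo4. A probe's level is not a transcript amount, so the order within the families is one of probe brightness.

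Spread across arrays was small for most genes and rose toward the background. The median SD over genes on was 0.15, and 9534 of 12620 (75.5%) had an SD under 0.25. With 1 replicate left out an SD rests on fewer arrays, so it is not directly comparable with 0.15. On that basis the median SD was 0.10 without replicate 1, 0.16 without replicate 2 and 0.13 without replicate 3. Over the 3 arrays it was 0.28 for levels from −9 to −3, 0.13 from 1 to 3 and 0.08 from 7 to 9. Across genes on, Pearson's r was 0.994 for replicates 1 and 2, 0.99 for 1 and 3 and 0.992 for 2 and 3. Genes are not independent, so these describe the arrays and carry no test. Among 226 probes with 10 spots per array that were on, the median SD between spots of an array was 0.07. From it, the median expected SD of a mean of 10 spots was 0.024. Between arrays the SD of that mean had a median of 0.15, and it exceeded the expected value in 221 of the 226. Different probes of 1 gene disagreed far more: among 3480 genes with 2 or more probes on, the median SD between probes was 1.32, and in 1189 (34.2%) the probes lay over 3 apart.

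On replicates 1 and 3 the deviation differed with the base composition of the probes. Genes on with probes of 35 to 40% GC had a median deviation from the gene's own mean of −0.08 on replicate 1 and 0.06 on replicate 3. At 60% GC and over (69 genes) these were 0.23 and −0.18, with 61 of 69 genes above their mean on replicate 1. Replicate 2 showed no such course, its medians staying between −0.04 and 0.03 in all 7 GC classes. The deviation also differed by level, and not in 1 direction. The share of genes above their mean on replicate 1 was 63.7% for levels from −3 to −1, 23.7% from 3 to 5, 51.6% from 7 to 9 and 83.7% from 9 to 12. All 14 lists of other lineages had a positive median deviation on replicate 1, from 0.08 to 0.32, and 6 of 7 erythroid lists a negative one, the globin list being the exception at 0.13. Over all genes on the median was −0.04, with 5248 of 12620 above their mean, and the 6 negative lists lay between −0.11 and −0.04. Members on had a median probe GC of 45% in the former and 40% in the latter. The part of GC and level in these list differences was not tested.

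**Figure D4:**
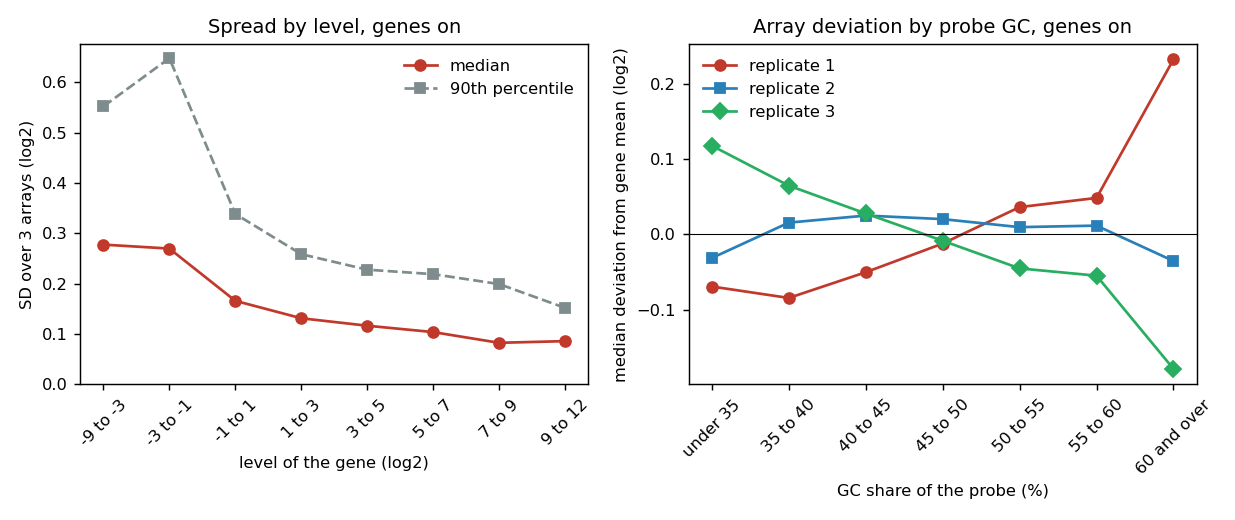
Left, median and 90th percentile of the SD over 3 arrays (log2) for genes on, by level of the gene. Right, median deviation of each array from the gene's mean (log2) by GC share of the probe (%). The median SD falls from 0.28 to 0.08 with level, and replicates 1 and 3 deviate in opposite directions as GC rises.

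Only 128 genes on had an SD over 1, and 118 of them (92.2%) lay below level 0. Replicate 3 was the highest array in 103 of the 128 and replicate 2 the lowest in 97. Of the 12 named genes with the largest SD, 9 were highest on replicate 3 and 6 were lowest on replicate 2. Cenpi, a centromere protein, gave −1.98, −2.96 and 0.61, Plcb4 gave −3.57, −3.38 and −0.30, and Irf5 gave −2.81, −3.69 and −0.39, each high on replicate 3. Tcl1b5, Olfr670, Kcnip2, Hnf4a and Tmem221 were also highest on replicate 3. Il9, an interleukin, gave −3.13, −0.16 and 0.34 and Cd59b gave −3.16, −0.08 and −0.89, both low on replicate 1.

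The pair of bright genes in that set went the other way. Inafm2 gave 7.87, 4.07 and 4.04, and Iqsec3 gave 8.11, 5.60 and 5.14, high on replicate 1. Tenm4 (8.05, 5.92 and 5.46) and Foxl2 (9.90, 7.67 and 7.66, widely shared) had the same shape, as did Hcn2 (9.16, 7.40 and 7.13). The other bright genes with an SD over 1 were high on replicate 3: Rhox8 gave 5.48, 5.52 and 7.46, Dcc gave 5.39, 5.80 and 7.48, and Anp32a gave 3.14, 2.58 and 4.71. These 6 genes were chosen after their values were seen, as those with levels of at least 3. Rhox8 and Dcc, like Foxl2, were read through widely shared probes. Without such probes Foxl2 was −1.45, Rhox8 was 0.81 and Dcc was mixed at −4.54. The probes of Inafm2, Tenm4, Foxl2 and Hcn2 are 76.7 to 86.7% G and C, against a median of 43.3% over genes on. That of Iqsec3 is 40%, and those of the 3 genes high on replicate 3 are 31.7 to 43.3%. Among the erythroid genes on, the largest SDs were 0.54 for Hbb-bh1, 0.48 for Hbb-y and 0.41 for Pklr, the red cell pyruvate kinase.

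Promoters of genes on and off differed in composition. Of the 22328 genes, 17443 matched a RefSeq promoter by symbol, and the first listed was used. In the 100 bases around the start, the median ratio of observed to expected CpG was 0.83 for genes on and 0.37 for genes off. Among genes on it rose from 0.54 in the dimmest to 0.90 in the brightest of 5 equal classes by level. As background, CpG-rich promoters are common at widely active genes. The erythroid lists stood between, at 0.65. Within them the globin list was at 0.15 and heme synthesis at 0.82.

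Motif letters were counted on both strands of the 300-base promoters, as letters and not as sites. The letters CGGAAG are a core bound by ETS factors. They lay in 31.0% of promoters of genes on, 9.67% of genes off, 22.1% of genes with a probe and 17.2% of all 27025. TATAAA lay in 8.18%, 18.8%, 12.6% and 14.2%, in the same order. The GATA letters are AGATAA or AGATAG, and the same with T as the first base. They lay in 21.2% of genes on, 32.5% of genes off, 25.8% of genes with a probe and 30.2% of all. The GATA letters were thus less frequent among genes on as a whole, whose promoters are richer in G and C (median 59.7% against 51.0% for genes off).

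In the erythroid lists GATA letters lay in 35 of 95 promoters (36.8%), beside 25.8% for genes with a probe. The shares by list were 11 of 18 for red cell membrane, 5 of 8 for globins, 7 of 20 for transcription factors and 2 of 14 for heme synthesis. CTG followed after 9 bases by GATA, the spacing known from composite sites of Tal1 and GATA-1, lay in 10 of 95 (10.5%). The shares were 1.90% for genes on, 2.08% for genes with a probe and 2.50% of all promoters. Of the 10, 5 were in the red cell membrane list, and the heme, iron and erythropoietin lists held none. Nor were these letters particular to erythroid lists, with 2 of 12 for megakaryocyte and 2 of 10 for mast cell promoters. CCNCNCCC, letters that KLF factors bind and that overlap other GC-rich motifs, lay in 70.5% of the erythroid promoters, beside 64.9% for genes on, 57.6% for genes with a probe and 49.1% of all. Some other lists held them more often, such as the progenitor list with 13 of 15 and the pluripotency list with 12 of 12. The lists of other lineages also held GATA letters often in places (7 of 11 for hepatocyte and 7 of 10 for mast cells).

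**Figure D5:**
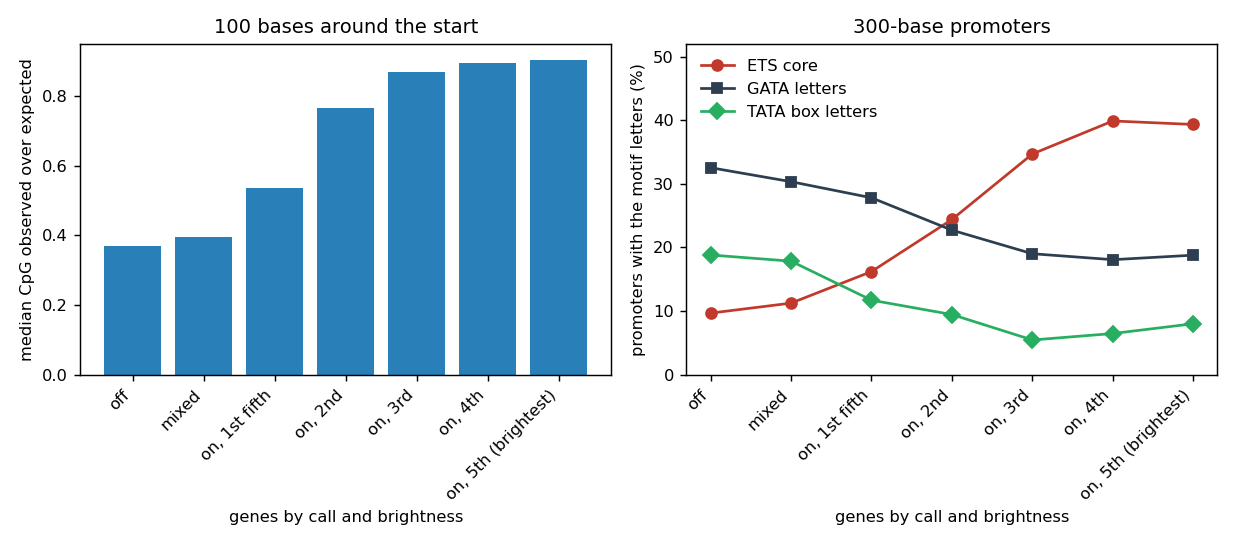
Left, median ratio of observed to expected CpG in the 100 bases around the start for genes off, mixed and on, the last in 5 equal classes of brightness. Right, percent of 300-base promoters that hold ETS, GATA or TATA box letters in the same classes. CpG rises from 0.37 in genes off to 0.90 in the brightest class, ETS letters rise from 9.67% to 39.3% and GATA letters fall from 32.5% to 18.8%.

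The 250 bases before the start are shown for 4 erythroid genes whose promoter holds GATA letters, in capitals on the strand of the gene, and for Urod as a CpG-rich heme gene without them (RefSeq, GRCm38.p6). They were chosen after the promoters had been read.

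Hba-a1, chr11:32283422-32283671, plus strand: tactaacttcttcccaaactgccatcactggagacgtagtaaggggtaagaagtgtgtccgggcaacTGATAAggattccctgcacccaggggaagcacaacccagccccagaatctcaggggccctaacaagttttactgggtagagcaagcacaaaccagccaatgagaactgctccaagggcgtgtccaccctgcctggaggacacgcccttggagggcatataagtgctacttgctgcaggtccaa
Alas2, chrX:150547167-150547416, plus strand: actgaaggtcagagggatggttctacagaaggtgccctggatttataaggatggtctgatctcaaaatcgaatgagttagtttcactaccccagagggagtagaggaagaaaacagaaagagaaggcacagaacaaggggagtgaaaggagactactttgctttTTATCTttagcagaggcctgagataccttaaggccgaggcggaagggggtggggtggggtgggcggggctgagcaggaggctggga
Epor, chr9:21963577-21963826, minus strand: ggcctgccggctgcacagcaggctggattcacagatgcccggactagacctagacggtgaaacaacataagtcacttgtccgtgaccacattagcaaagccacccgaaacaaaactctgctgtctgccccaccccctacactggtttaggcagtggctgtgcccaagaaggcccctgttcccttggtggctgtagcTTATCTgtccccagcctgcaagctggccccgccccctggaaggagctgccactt
Klf1, chr8:84901732-84901981, plus strand: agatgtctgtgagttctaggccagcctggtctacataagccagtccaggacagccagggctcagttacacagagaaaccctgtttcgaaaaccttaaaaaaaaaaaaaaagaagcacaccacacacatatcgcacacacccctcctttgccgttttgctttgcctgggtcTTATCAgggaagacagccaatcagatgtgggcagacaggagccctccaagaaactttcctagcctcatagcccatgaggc
Urod, chr4:116994414-116994663, minus strand: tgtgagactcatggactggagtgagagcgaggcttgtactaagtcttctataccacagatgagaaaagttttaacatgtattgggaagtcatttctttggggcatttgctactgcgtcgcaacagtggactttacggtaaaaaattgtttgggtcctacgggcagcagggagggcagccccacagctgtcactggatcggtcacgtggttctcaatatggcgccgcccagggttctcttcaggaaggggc

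The GATA letters began at position −183 from the start in Hba-a1, −86 in Alas2, −54 in Epor and −80 in Klf1, where levels were 11.26, 9.91, 6.49 and 5.78. Urod, with CpG at 0.84 of expectation and no GATA letters, stood at 8.47. The promoter stretches of Zfpm1 and Gata1, read in the same way, held no GATA letters either. With genes chosen by their promoters, no relation to level can be read from these values. The Klf1 stretch also holds, from position −233, the 18-base run of the Kctd14 probe.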

How the data were processed

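The intensity values, per the file headers, are gProcessedSignal from Agilent Feature Extraction 10.7.3.1, with spatial and multiplicative detrending within each array, with surrogate values where a spot did not exceed background (20.3 to 25.2% of spots); no scaling between arrays is recorded. Each array held 62976 spots, of which 3671 control spots were left out. From 53.3 to 56.5% of the 59305 remaining spots were well above background and none was saturated; the number of arrays limits precision. Outlier spots were removed, log2 intensity was set relative to each array's 75th percentile, and spots of a probe were averaged; a probe was called well above background when at least 50% of its spots were. The other flags deposited by the authors (well above background, outlier, positive and significant) were used as given. Probes were matched to RefSeq by transcript accession (27235), symbol (3581) or synonym (565), and 24300 stayed unmatched.

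Apart from members added to follow a pathway or to compare partners, the rule for named genes took the 20 brightest genes with no placeholder symbol, the 4 brightest and every member not on of each erythroid, progenitor and general list, up to 6 members on of each other list, the 12 largest SDs and all GATA and FoxO genes. Members and lists were chosen with earlier results of these data known. Some list members are counted but not reported here by name. With 1 group no test was made. The functions were tested on simulated data. Alternatives used limma 3.58.1 for normexp (offset 50) and quantile normalization; numpy 2.4.6, pandas 2.3.3 and scipy 1.17.1 did the rest.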

Additional observations from a re-analysis of the deposited data

How the results depend on the processing

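Of 56 recomputed values, 8 moved. A count moved when it changed by more than a factor of 1.5, so sizeable changes can pass as unmoved. With the positive and significant call, probes rose from 26837 to 37011 and genes on from 12620 to 16023, both unmoved by that rule. The limit was 0.033 for the median SD, its SD over pairs of arrays. For the CpG difference it was 0.0096, its SD over single arrays. The median SD over genes on, 0.15, became 0.19 when positive and significant against background was the call and 0.27 after scaling to the median. It lay between 0.10 and 0.16 when each replicate was left out in turn, and was 0.10 without replicate 1. Those leave-out SDs rest on fewer arrays and are not directly comparable with 0.15. With the positive and significant call the lists of other lineages had 122 genes on in place of 78 (65.6% of members, beside 71.8% of all genes). Of the 20 brightest genes 10 remained with the median probe of each gene and 10 without widely shared probes, a setting chosen after seeing the data. The CpG difference between genes on and off, 0.46, was 0.44 with a call on at least 2 arrays and 0.43 over 300 bases. Genes on numbered 12788 to 13089 with 1 replicate left out, and probes 27313 to 28089. Erythroid genes on stayed at 118, those of other lineages at 79 to 81 and brightest genes at 19 to 20. A call then needed only the remaining arrays, so the counts of probes and genes on could hardly fall. Among 140 named genes on, 120 kept their percentile within 5 points under quantile normalization, normexp and each replicate left out; the largest shift was 11.3 (Kcnip2, without replicate 2). No paired analysis was possible because only 1 group was used. Surrogate values limit what can be read below about −4.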
